A study of Mus musculus with 2 samples.

Results

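The Rtl1-antisense microRNAs are 8 hairpins, Mir337, Mir540, Mir665, Mir431, Mir433, Mir127, Mir434 and Mir136, that lie on the plus strand of mouse chromosome 12, opposite the gene Rtl1 or just past its annotated end. They were taken by name: the rows whose Ensembl identifier maps to these symbols in GENCODE M21 gave 8 of the 2202 miRNA genes in the tables. All 8 passed the filter on low values, a level of at least 2 CPM, counts per 1000000 counts in miRNA genes, in both libraries. Short RNA was sequenced from hippocampus of 25-day-old female B6CASTF1/J mice, the first-generation cross of C57BL/6J with CAST/EiJ, bought from The Jackson Laboratory. No treatment or other allele is given. There is 1 group with biological replicates 1 and 2, made from different tissue samples. The labels speak of a hippocampal layer without saying which, give both samples the same donor record, and do not say whether animals were pooled. With 1 group, the data give the level of each hairpin and how far the libraries differ, and no comparison of conditions.

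MicroRNAs are short RNAs cut from hairpin precursors, and they guide Argonaute proteins to mRNAs that pair mainly with bases 2 to 8, the seed. The Rtl1-antisense hairpins belong to the imprinted Dlk1-Dio3 region, where noncoding RNAs and their microRNAs are made from the maternal chromosome, while Dlk1, Rtl1 and Dio3 are expressed mainly from the paternal one. Rtl1 is an intron-poor gene that derives from a retrotransposon. Where a hairpin is transcribed through its coding sequence in the other direction, the products can pair with the Rtl1 mRNA along their whole length, and mice that lack some of these microRNAs have more Rtl1 protein and a malformed placenta. Maternal and paternal reads were not told apart here, and the tables hold no count of the Rtl1 mRNA.

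The products of the 8 hairpins are shown because each count is per hairpin and can come from either arm. RefSeq (GRCm38.p6) lists 16 mature sequences for them, 20 to 26 bases long, and all 8 symbols matched. Capitals mark the seed, and sequences run 5′ to 3′. The order is that of the hairpins along chromosome 12.
miR-337-5p: cGGCGUCAugcaggaguugauu
miR-337-3p: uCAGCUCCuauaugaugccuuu
miR-540-5p: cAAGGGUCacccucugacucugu
miR-540-3p: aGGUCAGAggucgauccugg
miR-665-5p: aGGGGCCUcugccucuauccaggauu
miR-665-3p: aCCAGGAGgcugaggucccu
miR-431-5p: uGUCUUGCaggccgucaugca
miR-431-3p: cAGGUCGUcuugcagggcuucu
miR-433-5p: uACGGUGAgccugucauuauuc
miR-433-3p: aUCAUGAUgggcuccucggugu
miR-127-5p: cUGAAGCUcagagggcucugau
miR-127-3p: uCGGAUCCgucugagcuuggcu
miR-434-5p: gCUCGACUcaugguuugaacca
miR-434-3p: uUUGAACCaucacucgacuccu
miR-136-5p: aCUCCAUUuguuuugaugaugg
miR-136-3p: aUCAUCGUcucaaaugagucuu

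The 16 products carried 16 distinct seeds, so no hairpin shared a seed with another. Of the 1738 mature entries in the RefSeq table, 1 outside the hairpins had a seed in common with them, miR-6915-5p of Mir6915 on chromosome 10, which shares the seed of miR-540-3p (aGGUCAGAgcagauggagguucgu). Mir6915 had 43 and 28 counts, a level of 7.20 ± 0.907 CPM (SD, n = 2), against 1181 ± 503 CPM for Mir540. No run of 18 bases of any member occurred on the same strand in another of the 2202 miRNA genes. Reads that match several places are in no gene count, and within the annotated miRNA genes none of the 8 had a copy that would take its reads; the rest of the genome was not searched.

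Some of the products share runs of bases that can include a seed, but at different positions, so their seeds differ. The longest run shared by 2 products, among 120 pairs compared, was GUCUUGCAGG, 10 bases, between the arms of Mir431. It occurs at both ends of that hairpin and in 1 of the 1005 RefSeq hairpins, searched on the RNA strand as listed. The arms of Mir434 share UUUGAACCA, 9 bases, which occurs 3 times in its hairpin and likewise in 1 of 1005. Between different hairpins the longest shared run was CGUCAUGCA, 9 bases, in miR-337-5p and miR-431-5p.

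Opposite Rtl1 the hairpins fell into 2 groups. In GENCODE M21 (mm10, positions counted from 1) Rtl1 runs from 109589193 to 109600330 on the minus strand, with 2 exons and a coding sequence from 109590172 to 109595403. Mir431 (ENSMUSG00000070080.1, 109590447 to 109590537), Mir433 (ENSMUSG00000070072.1, 109591715 to 109591838), Mir127 (ENSMUSG00000070076.2, 109592846 to 109592915), Mir434 (ENSMUSG00000070133.1, 109594506 to 109594599) and Mir136 (ENSMUSG00000104858.1, 109595327 to 109595388) lie opposite that coding sequence, all in the exon that holds it. Mir337 (ENSMUSG00000065526.4, 109585789 to 109585885), Mir540 (ENSMUSG00000072900.2, 109586080 to 109586146) and Mir665 (ENSMUSG00000076313.1, 109586314 to 109586407) lie past the annotated end of Rtl1, and Mir665 is 2785 bp from it. RefSeq gives Rtl1 a longer span, 109564900 to 109604418, which holds all 8.

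All 10 mature products of the 5 hairpins opposite the coding sequence had 1 exact complementary site each in the GENCODE Rtl1 mRNA, as their place on the other strand requires. The sites of the Mir136 arms begin in codons 6 and 18 of 1744, and those of the Mir431 arms in codons 1627 and 1642, so the hairpins span nearly the whole reading frame. The site of miR-127-3p begins in codon 832. It is shown as the example because Mir127 had the most reads, with the bases that face the seed in capitals.
Rtl1 site of miR-127-3p: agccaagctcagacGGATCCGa

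**Figure D1:**
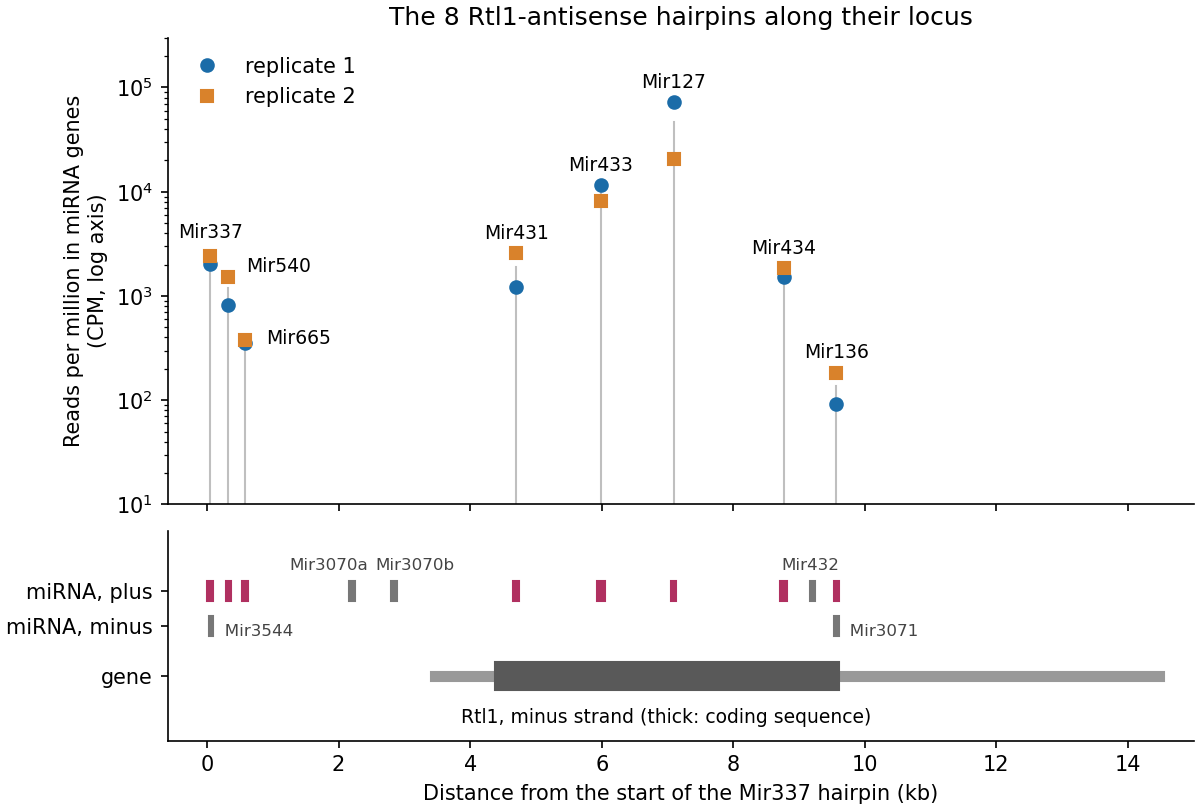
Upper panel: level of each hairpin in CPM (log axis) in replicate 1 (circles) and replicate 2 (squares), against distance in kb from the start of Mir337; grey lines reach the mean. Lower panel: members in red and other miRNA entries in grey on the plus and minus strand, with Rtl1 below (thin bar, gene span; thick bar, coding sequence). Mir127, inside the Rtl1 coding sequence, was highest in both libraries at 71805 and 20505 CPM, and Mir136 lowest at 91.2 and 183.

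A read stands for 1 short RNA of about mature length, so CPM was not divided by hairpin length, and all levels below are CPM over the reads in miRNA genes. The tables assigned 5481053 and 4266963 reads to miRNA genes in replicates 1 and 2, which puts 1 read at far below the level of any member. Together the 8 hairpins held 490034 counts in replicate 1, 8.94% of the reads in miRNA genes, with an exact (Clopper-Pearson) 95% interval of 8.92 to 8.96. In replicate 2 they held 160015 counts, or 3.75% (3.73 to 3.77). Their summed level was 63453 ± 36702 CPM (SD, n = 2). Reads that match several places, 41.9% and 46.4% of the libraries, are in no gene count. MicroRNAs made from several loci can thus be undercounted, and shares and ranks hold among the counted reads only.

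Mir127 accounted for most of these reads. It is the best known of the group, and mice without it have a defective placental labyrinth. Mir127 had 393567 counts in replicate 1 and 87492 in replicate 2, or 71805 and 20505 CPM, a mean of 46155 ± 36275 CPM. By counted reads it had rank 3 of all miRNA genes in replicate 1 and rank 11 in replicate 2. Its level was 3.50-fold lower in replicate 2 (95% interval 3.48 to 3.53), the largest difference between the libraries in the group. The intervals of ratios are exact, from the counts, and cover counting error only. They compare these 2 libraries and not conditions.

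Mir433, the neighbour of Mir127 on the side of the Rtl1 stop codon, was the second most abundant in both libraries. Mir433 had 63183 and 34433 counts, or 11528 and 8069.7 CPM, a mean of 9799 ± 2445 CPM and rank 21 by mean. It was 1.43-fold lower in replicate 2 (1.41 to 1.45). With totals over miRNA genes, Mir433 and Mir127 were the members with the highest levels and also the ones lower in replicate 2. Other scalings, given below, put further members slightly lower.

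The other hairpins opposite the coding sequence had lower levels. Mir431, reported to promote axon regrowth in sensory neurons, had 1230.4 CPM in replicate 1 and 2579.6 in replicate 2, a mean of 1905 ± 954, and was 2.10-fold higher in replicate 2 (2.03 to 2.16). Mir434 had 1534 and 1845 CPM (mean 1689.7 ± 220) and was 1.20-fold higher (1.17 to 1.24). Mir136, the hairpin nearest the Rtl1 start codon, had 500 and 781 counts, or 91.2 and 183 CPM (mean 137 ± 64.9), the lowest of the group in both libraries, and was 2.01-fold higher (1.79 to 2.25). Within the reading frame of a single gene the levels thus spanned from 91.2 to 71805 CPM in replicate 1 and from 183 to 20505 CPM in replicate 2.

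The 3 hairpins past the annotated end of Rtl1 lie within 619 bp of each other. Mir337 had 2036 CPM in replicate 1 and 2400.3 in replicate 2, a mean of 2218 ± 258, and was 1.18-fold higher in replicate 2 (1.15 to 1.21). Mir540 had 826 and 1537 CPM (mean 1181 ± 503) and was 1.86-fold higher (1.79 to 1.93). Mir665 had 355 and 382 CPM (mean 368 ± 18.8) and was 1.07-fold higher (1.01 to 1.15). The order Mir337, Mir540, Mir665, from highest to lowest, was the same in both libraries and followed their order along the chromosome.

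By mean CPM the order was Mir127, Mir433, Mir337, Mir431, Mir434, Mir540, Mir665 and Mir136. The ranges over the libraries did not overlap between Mir127 and Mir433, Mir433 and Mir337, Mir540 and Mir665, or Mir665 and Mir136. They overlapped between Mir337 and Mir431, Mir431 and Mir434, and Mir434 and Mir540. Mir431 stood below Mir337 and Mir434 in replicate 1 and above both in replicate 2, so its place beside them cannot be given from 2 libraries. Mir337 stood above Mir434 in both, and their ranges did not overlap.

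**Figure D2:**
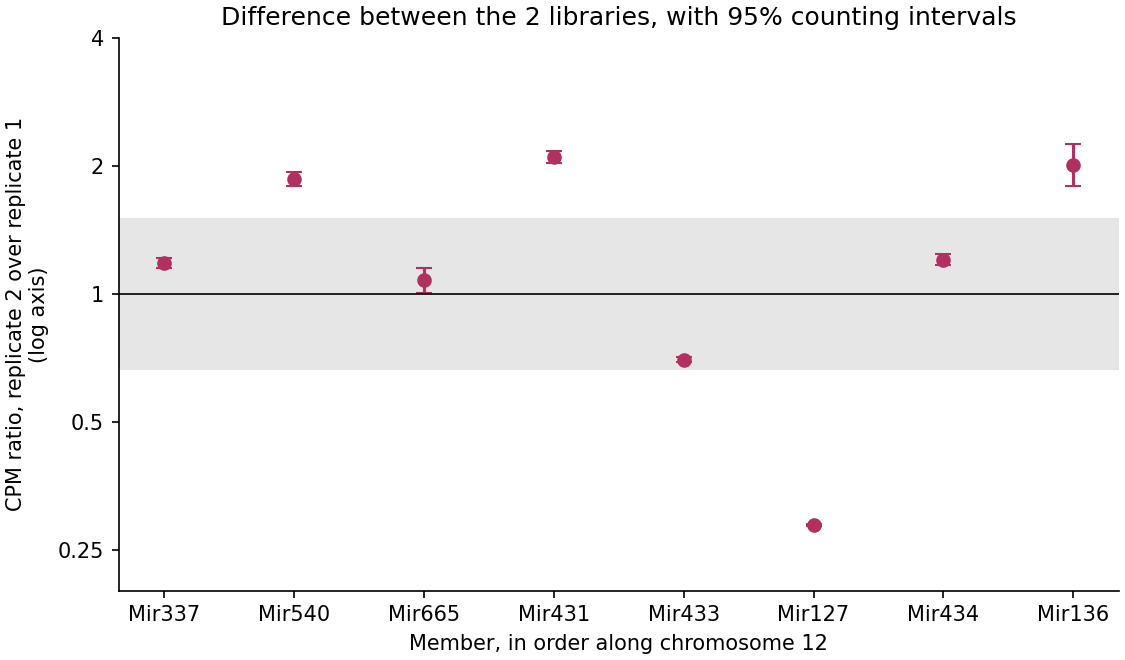
Ratio of CPM in replicate 2 over replicate 1 for each hairpin (log axis), in order along chromosome 12, with exact 95% counting intervals; the grey band spans 1.5-fold in either direction. Mir127 lies far below the band at 3.50-fold lower, Mir540, Mir431 and Mir136 lie above it, and the other 4 lie within it.

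Of the 8 hairpins, 3 were at least 1.5-fold higher in replicate 2 (Mir540, Mir431 and Mir136) and 1 at least 1.5-fold lower (Mir127). Of all 433 detected miRNA genes, 39.5% were at least 1.5-fold higher and 23.6% at least 1.5-fold lower, so the counts of the group stood near those of the tables as a whole. At 2-fold the group had 2 higher and 1 lower, against 27.7% and 15.7% of all detected genes. The median log2 ratio of (CPM + 1), replicate 2 over replicate 1, was 0.25 for the group and 0.27 for all detected genes. The log2 ratios of the group ran from -1.81 to 1.07 with an SD of 0.96, or 0.58 without Mir127. For the 218 detected genes with a mean of at least 100 CPM the SD was 1.81. Of these 218 genes, 39.9% were at least 1.5-fold higher and 28.0% at least 1.5-fold lower.

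The scaling decided the direction of the small differences. Both edgeR TMM scaling and DESeq2 size factors lowered the log2 ratios, and the median over detected genes went from 0.27 to -0.04. Under both, Mir127 remained lower, at 4.49-fold with TMM, Mir433 passed 1.5-fold lower at 1.83-fold, and Mir431 and Mir136 remained more than 1.5-fold higher, while Mir540 fell to 1.45-fold higher. Mir337, Mir434 and Mir665 turned to slightly lower, at ratios of 0.92, 0.94 and 0.84 with TMM. The group then had 2 higher and 2 lower, where 30.3% and 31.9% of 432 detected genes were higher and lower. With all reads of each table as the total, the group had 3 higher and 2 lower, where 36.1% and 29.6% of 341 detected genes were higher and lower. Among all called genes the share that was higher was 62.6% with totals over miRNA genes and 48.7% with either TMM or DESeq2.

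**Figure D3:**
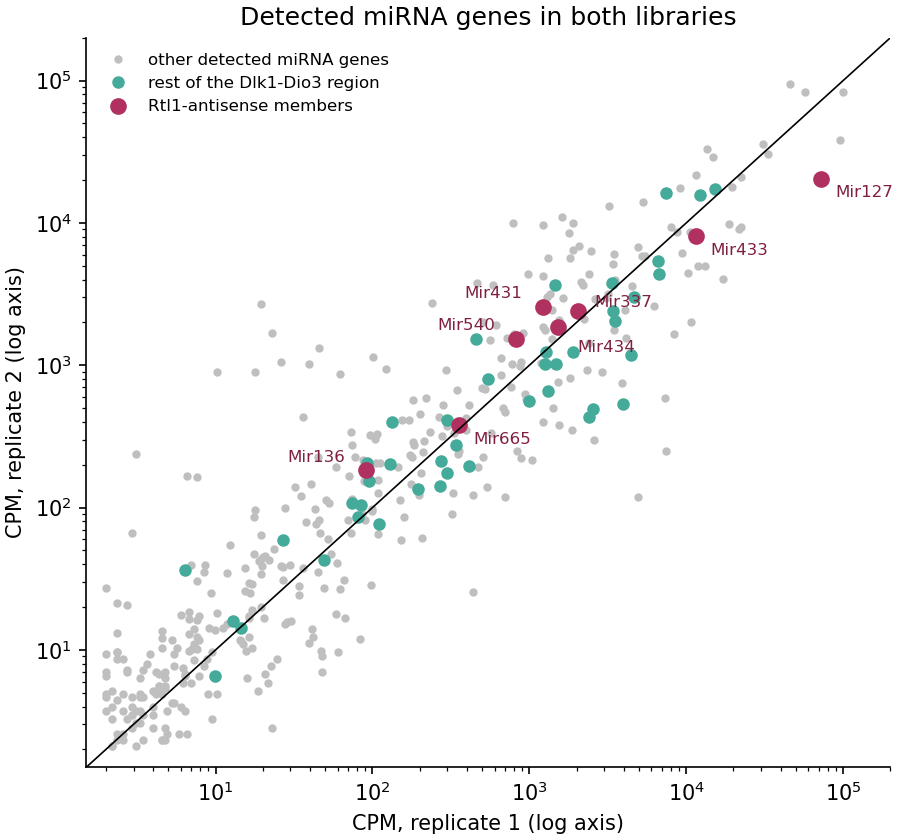
CPM of each detected miRNA gene in replicate 1 (horizontal) and replicate 2 (vertical), both on log axes, with the line of equal levels; Rtl1-antisense members in red, the rest of the Dlk1-Dio3 region in green and all others in grey. Mir127 and Mir433 lie below the line and the other 6 members on or above it.

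Ratios between hairpins within a library do not depend on the scaling, and those given here also differed, by unlike amounts. Mir127 had 6.23 reads for each read of Mir433 in replicate 1 (95% interval 6.18 to 6.28) and 2.54 in replicate 2 (2.51 to 2.57). Mir127 had 46.8 reads for each read of Mir434 in replicate 1 (45.8 to 47.8) and 11.1 in replicate 2 (10.9 to 11.4). Mir431 went the other way, with 0.107 reads for each read of Mir433 (0.104 to 0.109) and then 0.320 (0.313 to 0.327). The ratio of Mir337 to its neighbour Mir665 changed least, from 5.73 (5.46 to 6.02) to 6.29 (5.97 to 6.63), or 1.10-fold. These intervals overlap, which does not show that the ratios were equal, and the change itself was given no interval. Mir540, which lies between Mir337 and Mir665, went from 2.32 reads for each read of Mir665 (2.20 to 2.45) to 4.03 (3.81 to 4.25).

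**Figure D4:**
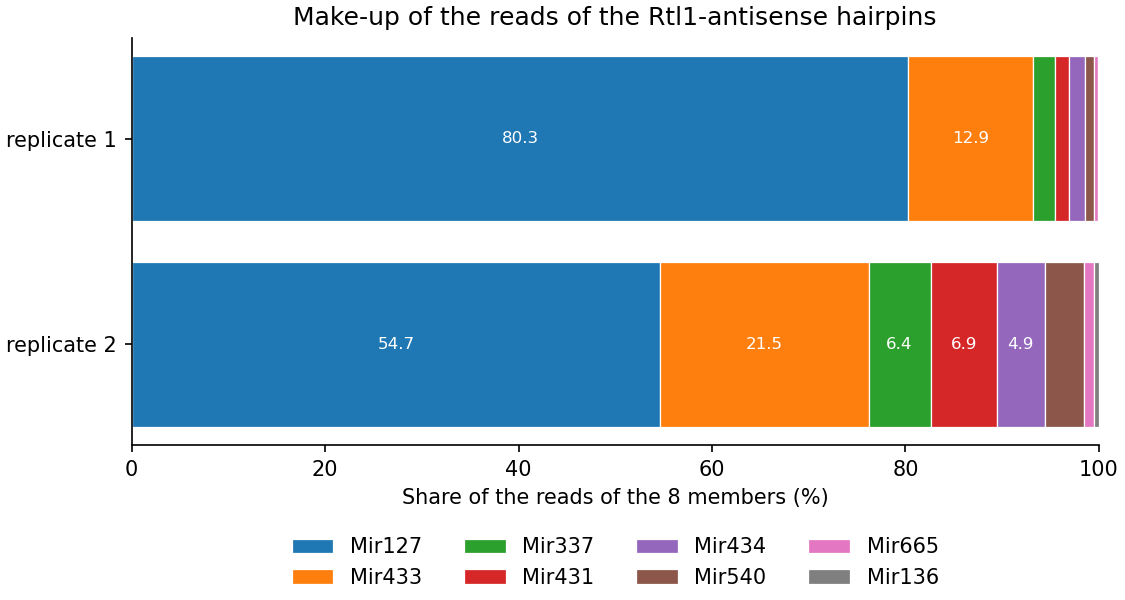
Share of each hairpin in the summed reads of the 8, in percent, for replicate 1 (upper bar) and replicate 2 (lower bar), ordered by mean CPM. Mir127 holds 80.3% of the bar in replicate 1 and 54.7% in replicate 2, and every other hairpin takes a larger share in replicate 2.

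Mir127 made up 80.3% of the reads of the group in replicate 1 (exact 95% interval 80.2 to 80.4) and 54.7% in replicate 2 (54.4 to 54.9). Mir433 made up 12.9% and 21.5%, Mir337 2.28% and 6.40%, and Mir431 1.38% and 6.88%. The fall in the group's share of the reads in miRNA genes between replicates 1 and 2 lay almost wholly in Mir127. Without Mir127 the other 7 summed to 17600.1 CPM in replicate 1 and 16996 in replicate 2, a mean of 17298 ± 427. With Mir127 the sum was 2.38-fold lower in replicate 2 (2.37 to 2.40), and without it 1.04-fold lower (1.03 to 1.05). The sum of the 7 is a net of a lower Mir433 and higher levels of the rest. It holds for totals over miRNA genes and was not computed under the other scalings. Within the 7, Mir433 took 65.5% of the reads in replicate 1 and 47.5% in replicate 2, while Mir431 went from 6.99% to 15.2% and Mir540 from 4.69% to 9.04%.

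Strand mattered for 2 of the hairpins. Mir337 overlaps the minus-strand entry Mir3544 and Mir136 overlaps the minus-strand entry Mir3071, and the products of each pair are complementary. Over their shared positions miR-136-5p and miR-3071-3p face each other for 20 bases, in capitals.
miR-136-5p: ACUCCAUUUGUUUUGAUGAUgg
miR-3071-3p: AUCAUCAAAACAAAUGGAGUcc

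On the strand column used here, Mir337 had 11159 and 10242 counts and Mir3544 had 1 and 0. Mir136 had 500 and 781 counts and Mir3071 had 0 in both, which allows up to 3 counts, or 0.547 and 0.703 CPM. In the opposite strand column the numbers changed places: Mir3544 had 11159 and 10241 counts and Mir3071 had 500 and 781, the reads of the plus-strand partners. With the columns read this way, the reads at both overlaps lay on the plus strand, the strand of the Rtl1-antisense hairpins. That reading was itself taken from how reads at overlapping miRNA genes move between the columns. The placement thus follows from the reading and is not a separate observation. Counted without strand, Mir337 had 0 and 1 counts and Mir136 had 0 in both, while the other 6 hairpins kept every count. RNAfold gave Mir136 a minimum free energy of -28.2 kcal/mol and Mir3071 -34.8, and gave Mir337 -49.4 and Mir3544 -23.5, for hairpins of 62, 80, 97 and 61 bases. Per base the energy was -0.455 kcal/mol for Mir136 and -0.435 for Mir3071, and -0.509 for Mir337 and -0.385 for Mir3544.

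Other entries of the tables sit among the hairpins. Mir3070a and Mir3070b, which lie on the plus strand between Mir665 and Mir431, had 71 and 68 counts and 80 and 61 counts, or 14.4 ± 2.11 and 14.4 ± 0.212 CPM. RefSeq gives both the same 5p product, so reads of it match several places and these counts are uncertain. Mir432, on the plus strand opposite the Rtl1 coding sequence between Mir434 and Mir136, had 0 counts in both libraries. Levels between neighbours on the same strand thus ran from 0 counts in Mir432 to 7873 or more in Mir434, the hairpin before it.

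The rest of the Dlk1-Dio3 region was set beside the group as a description, without a test. The region from Mir379 to Mir410 holds 43 entries, 34 of them detected, at 73569 CPM in replicate 1 and 66311 in replicate 2. The remaining entries, near Meg3, Rian, Rtl1 and Dio3, number 16, with 9 detected, at 16860 and 21488 CPM. The 8 Rtl1-antisense hairpins stood at 89405 CPM in replicate 1, above the whole Mir379 to Mir410 region, and at 37501 in replicate 2, below it. The median mean level of a detected gene was 1797 CPM in the group, 833 in Mir379 to Mir410 and 236 among the others. Mir127 was the most abundant of all 67 entries and Mir433 had rank 5.

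The leading entries of Mir379 to Mir410 were Mir487b at 15302 and 17234 CPM, Mir382 at 7420 and 16145 and Mir541 at 6588 and 5443. Those of the remaining entries were Mir770, in Meg3, at 12293 and 15820, Mir370 at 1467 and 3675 and Mir341 at 1472 and 1027 CPM. The median log2 ratio of the 34 detected genes from Mir379 to Mir410 was -0.31. Of these, 8 were at least 1.5-fold higher in replicate 2 and 12 at least 1.5-fold lower. The median of the 9 others was 0.09, with 1 higher and 2 lower. Over all 433 detected genes the median was 0.27, with 39.5% higher and 23.6% lower by that fold. The 2 region sets were not set out under the other scalings. Differences in both directions thus occurred in each set, and the log2 ratios from Mir379 to Mir410 had an SD of 1.17 against 0.96 in the Rtl1-antisense group. Without Mir127 the SD of the other 7 Rtl1-antisense hairpins was 0.58, with no gene left out of Mir379 to Mir410.

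**Figure D5:**
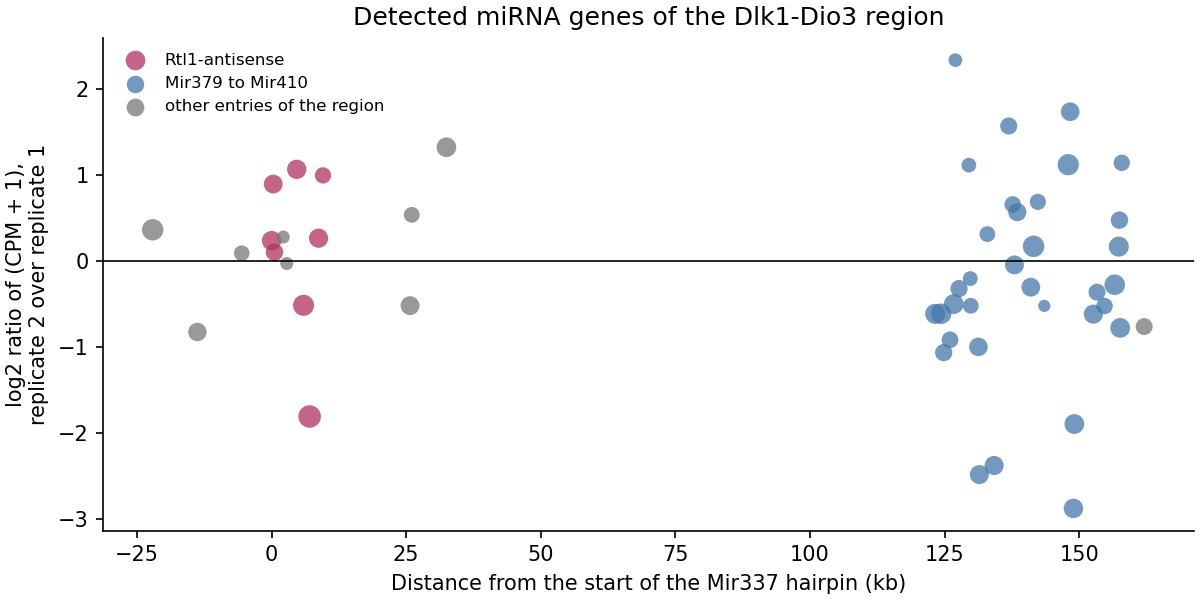
log2 ratio of (CPM + 1), replicate 2 over replicate 1, for each detected miRNA gene of the Dlk1-Dio3 region against distance in kb from the start of Mir337; larger points have higher mean CPM. The 8 Rtl1-antisense hairpins (red) run from -1.81 to 1.07, and the 34 genes from Mir379 to Mir410 (blue) from -2.88 to 2.34.

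The label of the tissue was checked against marker microRNAs. Of 13 neuron entries 10 were detected, at 46295 CPM in sum in replicate 1 and 50185 in replicate 2. Of these, 5 were at least 1.5-fold higher in replicate 2 and 4 at least 1.5-fold lower. The list holds several loci each of Mir9 and Mir124a, and reads that match several places are in no gene count. Mir124a-1 had only 18 and 20 counts, so the sum and the number detected can understate these microRNAs. Markers of other cell types also differed between the libraries, in both directions within some lists. Of all detected genes 39.5% were at least 1.5-fold higher in replicate 2 and 23.6% at least 1.5-fold lower. The short lists were not tested against these shares. The 3 oligodendrocyte markers, all detected, summed to 6503 and 939 CPM, with 1 higher and 2 lower by that fold. The 3 endothelial and mural markers, all detected, summed to 21958 and 12895 CPM, with 0 higher and 1 lower. The 5 microglia and immune markers, all detected, summed to 1986 and 1099 CPM, yet 3 were higher and 1 lower. Red blood cell markers (3 of 3 detected, 1 higher and 2 lower) stood at 88.1 and 65.9 CPM. Choroid plexus and ciliated markers (4 of 5 detected, 1 higher and 0 lower) stood at 983 and 2303 CPM. Epithelial markers stood at 74.8 and 5837 CPM and the sensory Mir183 cluster at 28.3 and 1839, with all detected members (5 of 6 and 2 of 3) higher. No marker in these lists was at 0 counts in either library. In bulk tissue fewer cells of a type and less RNA per cell cannot be told apart, and the part of these markers in the differences of the Rtl1-antisense hairpins was not tested.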

How the data were processed

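Per the text deposited with the tables, the authors aligned to mm10 and used the GENCODE M21 annotation. The aligner and its settings were not given in the sources used here. The authors deposited a table of raw counts for each library, with 1 row per miRNA gene, 3 value columns and no header. Column 3 of the file was used: it holds nearly all reads at miRNA genes and was read as 1 strand. Column 4 was read as the opposite strand and column 2 as the count without strand. This reading rests on how reads at overlapping miRNA genes move between the columns. No source names the columns.

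CPM were computed here over all gene rows. Rows that name no gene stayed out: reads that match several places (41.9% and 46.4% of the libraries), unmapped reads (17.1% and 17.2%) and reads outside miRNA genes (5.56% and 5.17%). Libraries hold 15474606 and 13677083 reads, and the reads in miRNA genes put the limit of a count of 0 (3 counts) at 0.547 and 0.703 CPM. PCR copies are not independent molecules, so intervals and limits cover counting error only. Adapter ligation differs between sequences, so an order between microRNAs is one of reads.

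Detected genes had at least 2 CPM in both libraries. A gene was called at 1.5-fold between libraries. Log2 ratios carry a pseudocount of 1 CPM. No p-value was computed, because there is 1 group. The ratio intervals were tried on simulated counts with counting (Poisson) error only, which is the error they assume. That trial checks the computation and not how real libraries vary. Named were all 8 hairpins, entries that overlap or neighbour them, the 3 highest of each other set of the region, and genes that share a seed. The region sets run from Dlk1 to 20 kb past Dio3. The members and lists were chosen with earlier results of these data known. Alternatives were edgeR 4.0.16 TMM, DESeq2 1.42.0 size factors, counts without strand, all reads of the table as total, other thresholds, filters and pseudocounts, and each library left out. Sequences are from RefSeq (GRCm38.p6) and the GENCODE M21 transcripts; hairpins were folded with RNAfold 2.7.2. R 4.3.3 and Python 3.11.15 were used.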

Additional observations from a re-analysis of the deposited data

How the results depend on the processing

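No paired analysis was possible because there is 1 group. The summed level of the 8 hairpins (63453 CPM) was 37501 and 89405 CPM with replicate 1 or replicate 2 left out, 17298 without Mir127 and 21683 per 1000000 reads of the whole table. The number of hairpins at least 1.5-fold lower in replicate 2 was 1, and 2 with TMM, with DESeq2 size factors and with all reads as the total, each time because Mir433 joined Mir127. The number at least 1.5-fold higher stayed at 2 or 3 under every alternative run. The median log2 ratio (0.25) was 0.16 without strand, where Mir337 and Mir136 have no usable counts, -0.11 with TMM and with DESeq2 size factors, and 0.069 with all reads as the total. With all reads as the total Mir665 was also slightly lower in replicate 2, at a ratio of 0.95. Mir127 was lower, and Mir431 and Mir136 more than 1.5-fold higher, under every scaling run. The ratios of single hairpins under these settings were added after seeing the data, and those of Mir337 and Mir136 have no value without strand. Mir136 had the fewest counts of the 8, 500 and 781, and no hairpin has more than 2 libraries behind its mean.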
